A study of Homo sapiens with 8 samples.

Results

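CHD1 and CHD2 are a pair of related chromatin remodellers, and their knockouts were followed here in a pooled CRISPR screen through the 10 sgRNAs that target each gene. They are 2 of the 779 genes of EPIKOL, a chromatin-focused sgRNA library, and their 20 sgRNAs are among 7855, of which 80 are non-targeting. Both genes were picked from the screen because their sgRNAs were more abundant under Taxol than under DMSO, so the values of that comparison, and of Taxol against the starting population, are given as descriptions without a test. The comparison of DMSO with the starting population did not enter the choice and was tested, although its DMSO libraries did enter it. The choice favours genes with low DMSO values, and so lower values in this comparison, which makes the test not independent of it.

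CHD1 and CHD2 form a subfamily of the chromodomain helicase DNA-binding proteins, ATP-driven motors that slide and space nucleosomes. The chromodomains of CHD1 bind histone H3 trimethylated at lysine 4, the mark of active promoters, and CHD1 spaces nucleosomes over transcribed genes. CHD2 has been tied to deposition of the histone variant H3.3, and both proteins have been placed at DNA breaks, CHD2 through PARP1. In RefSeq (GRCh38.p14), CHD1 (gene ID 1105) lies at chr5:98853985-98929007 and CHD2 (gene ID 1106) at chr15:92900324-93027996. The positions cut by the individual sgRNAs were not used here, and an sgRNA is called below by the number in its library identifier.

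The screen was run in T1-160 cells that express Cas9, a derivative of the triple-negative breast cancer line SUM159PT selected to grow in Taxol, a drug that stabilises microtubules. All libraries came from cells infected with the sgRNA library and selected with puromycin in the presence of verapamil, an inhibitor of efflux pumps. There were 3 libraries from cells grown in 160 nM Taxol (Taxol 1 to 3), 3 from cells grown in DMSO, the vehicle (DMSO 1 to 3), both for 16 population doublings, and 2 from cells collected right after puromycin (AP 1 and AP 3). Nothing in the labels says that the replicates were separate infections or cultures, so the p-values measure only the spread between these libraries, which may be technical.

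The libraries held 2045986 to 11771418 reads, the most in Taxol 1 and the fewest in Taxol 2, or 260.5 to 1499 reads per sgRNA. The 10 most abundant sgRNAs took 6.23% to 10.6% of a Taxol library, most in Taxol 1, against 2.36% to 2.80% of a DMSO library and 1.53% to 2.73% of an AP library. ABCB1, the efflux pump included as a positive control, had a log2 fold change of -0.87 ± 0.33 between Taxol and DMSO (SD between libraries, limma, adjusted p = 0.193). Counts were lower under Taxol for 9 of its 10 sgRNAs. ABCB1 passed the test without DMSO 3 (limma, adjusted p = 0.0108). Without any other single library it did not pass, with an adjusted p from 0.0531 (without Taxol 2) to 0.715 (without Taxol 1). In a fit on all libraries that pairs same-numbered Taxol and DMSO libraries, given below, ABCB1 passed (limma, adjusted p = 0.0116).

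All 20 sgRNAs of CHD1 and CHD2 had reads in all 8 libraries. The share of a library held by a gene puts all 8 libraries on 1 scale, here RPM, the gene's reads for every 1000000 reads of the library. The 10 CHD1 sgRNAs together held 3126, 1928 and 2183 RPM in Taxol 1, 2 and 3, against 1480, 1487 and 1802 in DMSO 1, 2 and 3 and 1694 and 1818 in AP 1 and AP 3. The Taxol libraries were all above the other 5, which held for 11 (1.41%) of all genes. On average CHD1 stood at 2413 ± 631 RPM in Taxol (SD, n = 3), 1590 ± 184 in DMSO (n = 3) and 1756 ± 87.8 in AP (n = 2). The order in RPM was thus Taxol, AP, DMSO, and AP and DMSO overlapped. As a mean over sgRNAs of log2 RPM, CHD1 changed by -0.26 from AP to DMSO, and the median gene by -0.23. In the deposited normalized counts the CHD1 change was 0.12, so the order of AP and DMSO depended on the scaling.

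The 10 CHD2 sgRNAs held 2749, 840 and 1558 RPM in Taxol 1, 2 and 3, against 963, 785 and 895 in DMSO and 1503 and 1043 in AP. Taxol 2 lay among the DMSO libraries, and all 3 DMSO libraries were below both AP libraries, as for 148 (19%) of all genes. The averages were 1716 ± 964 in Taxol (SD, n = 3), 881 ± 89.8 in DMSO (n = 3) and 1273 ± 325 in AP (n = 2), so that the order was again Taxol, AP, DMSO, with Taxol overlapping both of the others. The least sampled of these sums, CHD2 in Taxol 2, rested on 1718 reads, with a 95% exact binomial interval of 800 to 880 RPM. Such intervals cover counting error only, since PCR reads without molecular identifiers are not independent molecules.

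**Figure D1:**
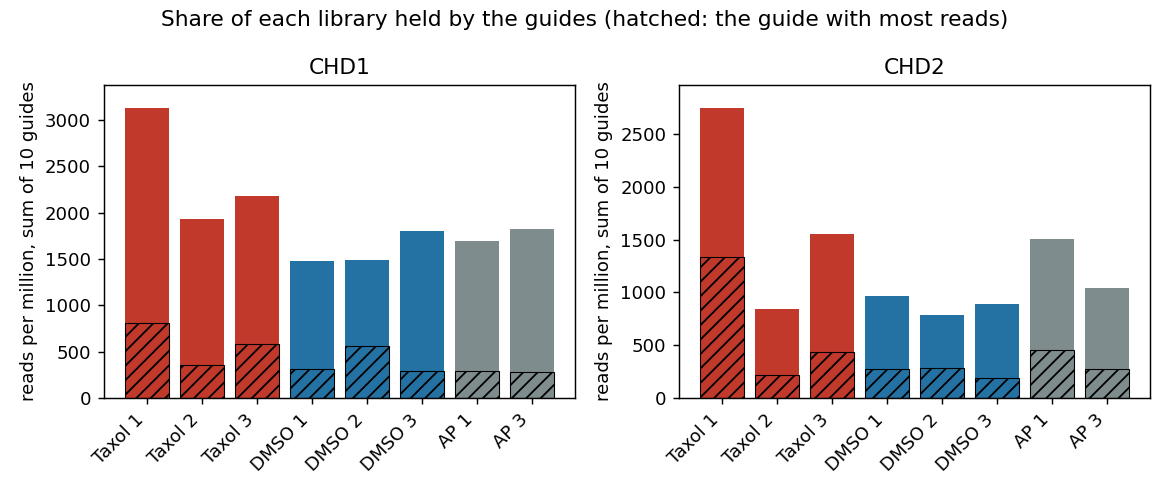
Reads (RPM) held by the 10 sgRNAs of CHD1 (left) and of CHD2 (right) in each Taxol, DMSO and AP library, 1 bar for each library. The hatched part is the single most abundant sgRNA of the gene in that library; it makes up 48.7% of the CHD2 bar in Taxol 1.

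A single sgRNA carried much of the CHD2 sum in one library. sgRNA 1280 held 48.7% of all CHD2 reads in Taxol 1 (95% exact binomial interval 48.2% to 49.2%), against 25.4% in Taxol 2, and 30.2% and 26.1% in AP 1 and AP 3. In CHD1 the most abundant sgRNA held 18.2% to 26.6% of the gene's reads in the Taxol libraries, against 16.2% to 37.3% in the DMSO libraries, the highest being sgRNA 1258 in DMSO 2. A sum therefore leans on few sgRNAs, and the gene values that follow give each sgRNA equal weight: they are the mean over the 10 sgRNAs of log2(normalized count + 1). With the added 1, changes of rare sgRNAs come out too small.

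On this scale CHD1 had a mean of 10.96, 9.61 and 10.04 in Taxol 1, 2 and 3, against 9.25, 9.38 and 9.51 in DMSO 1, 2 and 3. The lowest Taxol library was above the highest DMSO library, although by little. Of all 779 genes, 49 (6.29%) had their Taxol libraries above all DMSO libraries in this way. The log2 fold change of CHD1 was 0.82 (a 1.77-fold higher geometric mean), with an SD between libraries of 0.49, and it was the 6th highest of the 779 genes, whose median was 0.03.

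CHD2 had a mean of 10.06, 8.25 and 8.86 in Taxol 1, 2 and 3, against 7.99, 8.13 and 8.35 in DMSO 1, 2 and 3. Here the groups overlapped, since Taxol 2 lay below DMSO 3. The log2 fold change was 0.90 (1.87-fold), with an SD between libraries of 0.67, the 3rd highest of the 779 genes. Because both genes were picked on this contrast, these ranks describe the choice.

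The size of both changes came largely from Taxol 1, the deepest and most skewed Taxol library. Relative to the mean of the DMSO libraries, CHD1 stood at 1.58, 0.23 and 0.66 in Taxol 1, 2 and 3, and CHD2 at 1.91, 0.09 and 0.71 (log2). Without Taxol 1 the log2 fold change was 0.45 for CHD1 and 0.40 for CHD2, and without Taxol 2 it was 1.12 and 1.31. The replicate numbers pair Taxol with DMSO libraries in the data, and within the pairs numbered 1, 2 and 3 the difference between Taxol and DMSO was 1.71, 0.23 and 0.54 for CHD1 and 2.08, 0.12 and 0.51 for CHD2, while that of the median gene was 0.14, -0.11 and 0.07. All 6 of these differences were above that of the median gene in the same pair, which picking both genes on this contrast favours. The share of all genes for which this held was not counted.

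**Figure D2:**
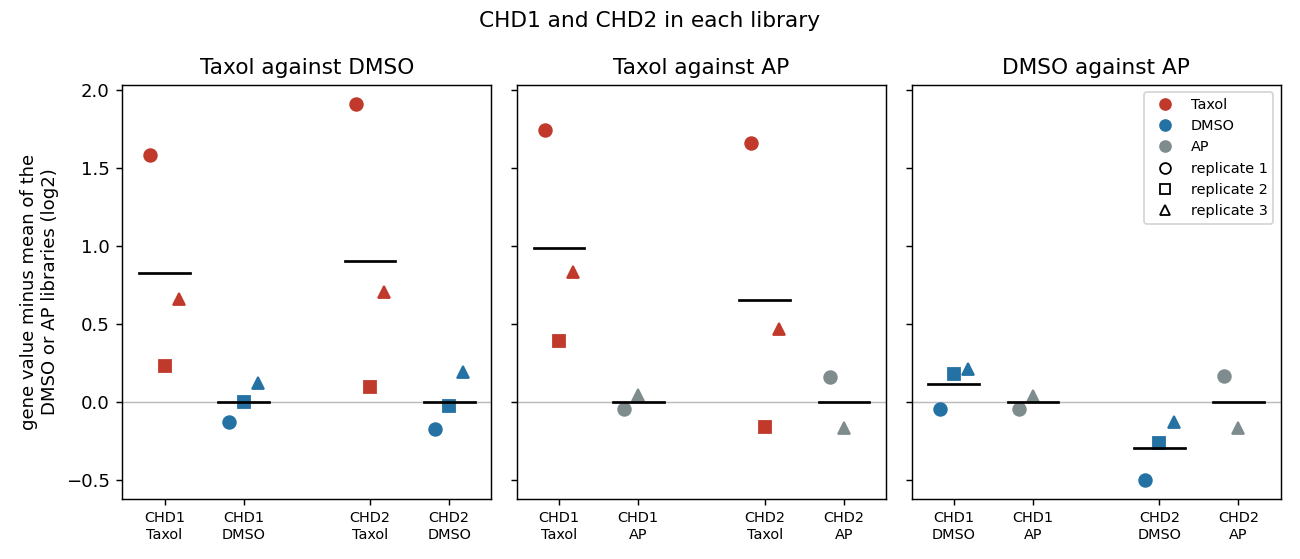
Gene value of CHD1 and CHD2 (mean over 10 sgRNAs of log2(normalized count + 1)) in each library, minus the mean of the DMSO libraries (left panel) or of the AP libraries (middle and right), in log2 units. Symbols mark replicate numbers and black lines group means; Taxol 1 is highest and Taxol 2 lowest of the Taxol libraries for both genes, and the DMSO libraries lie between -0.50 and 0.22 of the AP mean.

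Among the 779 genes, 1 (0.128%) passed an adjusted p of 0.05 between Taxol and DMSO in limma, with 36 higher (4.62%) and 12 lower (1.54%) at an unadjusted p under 0.05. The gene that passed was USP22, the deubiquitinase of the SAGA complex, which is named because it was the only call (log2 fold change 1.54 ± 0.31, limma, adjusted p = 0.000405), and without DMSO 1 its adjusted p was 0.0983. With the replicate number as a block, which pairs same-numbered libraries, USP22 was higher and ABCB1 lower (limma, adjusted p = 1.21e-05 and 0.0116). The other p-values between Taxol and DMSO in these Results are from fits without the block.

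The single sgRNAs show how the gene values were built. Of the CHD1 sgRNAs 9 of 10 had a higher mean under Taxol, and of the CHD2 sgRNAs all 10 did. Picking both genes on this contrast favours such counts. Library by library, 3713, 3494 and 3602 of all 7855 sgRNAs were above their DMSO mean in Taxol 1, 2 and 3. For CHD1 these were 10, 7 and 8 of 10, and for CHD2 10, 7 and 7 of 10. The sgRNA log2 fold changes had a median of 0.83 and a range of -0.13 to 1.80 for CHD1, and a median of 0.80 and a range of 0.14 to 1.81 for CHD2. Their SD between the sgRNAs of a gene was 0.52 for CHD1 and 0.48 for CHD2, and the median of this SD over all genes was 0.64. Only 1 of the 20 sgRNAs had all Taxol libraries above all DMSO libraries, where 374 of all 7855 (4.76%) did.

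That one was CHD1 sgRNA 1252, which stood at 1434, 1307 and 1415 normalized counts in Taxol 1, 2 and 3, against 422, 503 and 296 in DMSO 1, 2 and 3. The 3 Taxol libraries were close to each other and all more than 2 times the highest DMSO library (log2 fold change 1.80, SD between libraries 0.28). sgRNA 1259 had 2780, 1074 and 3475 counts in Taxol, against 701, 1096 and 1184 in DMSO, with Taxol 2 inside the DMSO range. sgRNA 1254 had 6682, 1412 and 922 counts in Taxol, against 1416, 725 and 733 in DMSO, and sgRNA 1256 had 5829, 733 and 445, against 446, 618 and 869. In these last sgRNAs Taxol 1 alone was above the DMSO libraries.

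sgRNA 1251 had 1516, 1624 and 1006 counts in Taxol, against 661, 492 and 1249 in DMSO, with Taxol 3 inside the DMSO range. The remaining CHD1 sgRNAs changed less. sgRNAs 1260, 1257, 1253 and 1255 had log2 fold changes of 0.80, 0.60, 0.60 and 0.36. sgRNA 1258 was the exception in direction, at 2611, 276 and 841 counts in Taxol, against 365, 3222 and 669 in DMSO, with DMSO 2 above every other library and a log2 fold change of -0.13.

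Among the CHD2 sgRNAs, 1280 stood at 11087, 988 and 2390 normalized counts in Taxol 1, 2 and 3, against 1181, 650 and 785 in DMSO 1, 2 and 3. It had the highest fold change of the gene (1.81, SD between libraries 1.29), and it ranked 60th of all sgRNAs by reads in Taxol 1. In the starting libraries it ranked 51st in AP 1 and 459th in AP 3. sgRNA 1279 had 2418, 145 and 381 counts in Taxol, against 158, 172 and 244 in DMSO, so that Taxol 2 was the lowest of the 6 libraries.

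sgRNA 1278 had 388, 470 and 1990 counts in Taxol, against 309, 303 and 458 in DMSO, with its highest value in Taxol 3. sgRNA 1275 had 3296, 613 and 2606 counts in Taxol, against 720, 1670 and 871 in DMSO. For these, Taxol 3 was above every DMSO library. The log2 fold changes of sgRNAs 1274, 1273, 1277, 1272 and 1271 were 1.16, 0.82, 0.71, 0.66 and 0.50, each with Taxol 1 as the single library above all of DMSO. sgRNA 1276 was rare throughout, with 73, 33 and 13 reads in Taxol 1, 2 and 3, against 31, 71 and 58 in DMSO 1, 2 and 3, and its log2 fold change was 0.14.

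**Figure D3:**
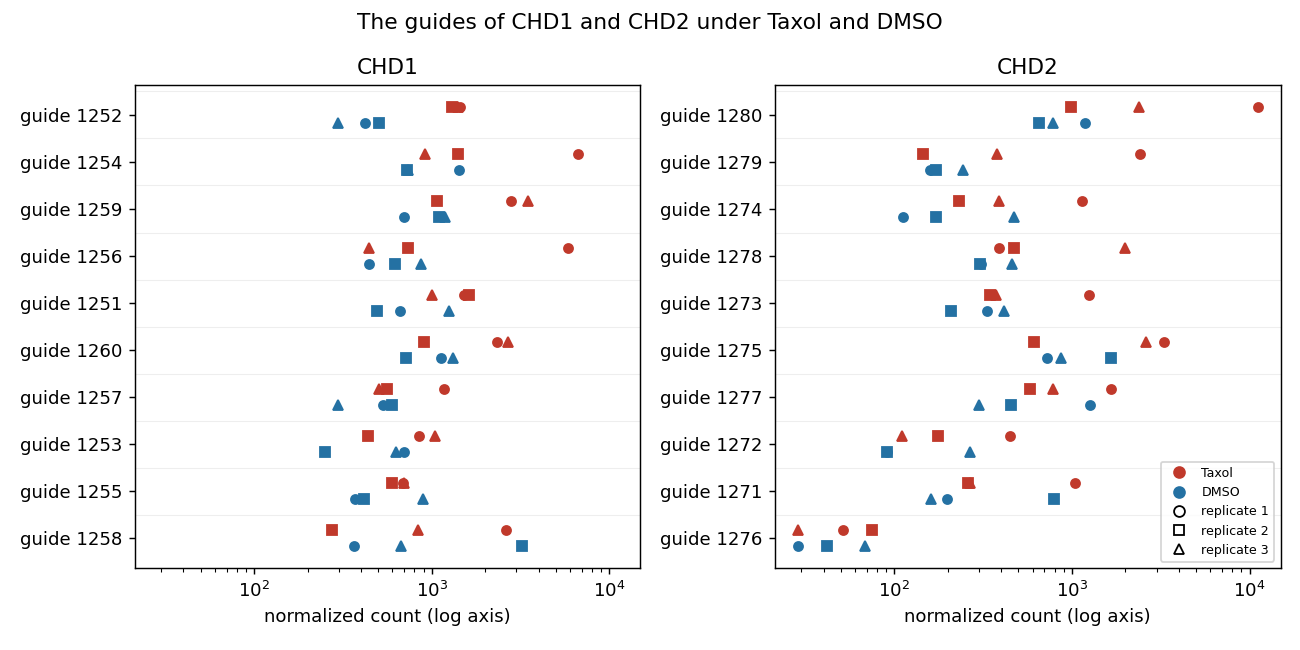
Normalized counts (log axis) of the 10 sgRNAs of CHD1 (left) and of CHD2 (right) in the Taxol libraries (red, upper points of each row) and the DMSO libraries (blue, lower points), with sgRNAs ordered by log2 fold change and symbols for replicate numbers. CHD1 sgRNA 1252 is the only one whose Taxol libraries all lie above its DMSO libraries. The Taxol 1 circle lies furthest right for CHD1 sgRNAs 1252, 1254, 1256 and 1257, and for every CHD2 sgRNA but 1278 and 1276.

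Counting sgRNAs in each Taxol library gives the same split by library. In Taxol 1, 8 of 10 CHD1 sgRNAs and 8 of 10 CHD2 sgRNAs were above all DMSO libraries, against 29.5% of all sgRNAs. In Taxol 3 these were 4 of 10 for each gene, against 24.3% of all sgRNAs, and in Taxol 2 they were 2 of 10 for each gene, against 19.5%. The spread of all sgRNAs around the DMSO mean was also widest in Taxol 1, with an SD of 1.22 in log2 units, against 1.02 in Taxol 3 and 0.77 in Taxol 2. The part of this spread in the CHD1 and CHD2 values was not tested. Taken sgRNA by sgRNA against the DMSO mean, the median non-targeting sgRNA stood at -0.06, -0.07 and -0.09 in Taxol 1, 2 and 3. In DMSO 1, 2 and 3 it stood at 0.01, -0.04 and -0.16, a range that holds the Taxol values.

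Against the starting population, with the Taxol libraries shared with the comparison above, CHD1 stood at 1.74, 0.39 and 0.83 log2 units above the AP mean in Taxol 1, 2 and 3, while AP 1 and AP 3 stood at -0.05 and 0.05. The groups did not overlap, which was so for 252 (32.3%) of all genes with Taxol above AP. The log2 fold change was 0.99 with an SD between libraries of 0.56, and 9 of 10 sgRNAs were higher. CHD2 stood at 1.66, -0.16 and 0.47 above the AP mean in Taxol 1, 2 and 3, with AP 1 and AP 3 at 0.16 and -0.16, so that the groups overlapped. Its log2 fold change was 0.66 with an SD of 0.77, and 7 of 10 sgRNAs were higher. Of all genes, 527 (67.7%) were above 0 in this comparison, and the share of all sgRNAs was not counted. The median gene was at 0.20 here, and 1 gene (0.128%), again USP22, passed an adjusted p of 0.05, a call that was lost without any 1 of Taxol 1, Taxol 3, AP 1 or AP 3.

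The sgRNAs with the largest values against AP were CHD1 1258 (1.63) and CHD2 1275 (1.63). CHD1 sgRNA 1252 had 1550, 1412 and 1541 counts in Taxol, against 608 and 648 in AP, again with little spread (log2 fold change 1.25, SD 0.07). In all, 3 sgRNAs of each gene had every Taxol library above both AP libraries, as did 975 (12.4%) of all 7855 sgRNAs. For CHD2 the log2 fold change without Taxol 1 was 0.15, and on the RPM scale it was -0.07, with the median gene there at -0.53.

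Growth in DMSO alone, which asks whether loss of either gene changed the growth of these cells without drug, left no difference from AP that passed the test. CHD1 had gene values of 9.68, 9.90 and 9.93 in DMSO 1, 2 and 3, against 9.68 and 9.76 in AP 1 and AP 3, which overlapped. The log2 fold change was 0.12 (95% interval -0.32 to 0.55, limma, adjusted p = 0.741), with 6 of 10 sgRNAs higher. The median gene was at 0.15 and 493 genes (63.3%) were above 0, so that CHD1 sat near the middle of the library. Centred on the non-targeting sgRNAs the CHD1 value was -0.19, with the median gene at -0.16.

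CHD2 had gene values of 8.40, 8.64 and 8.78 in DMSO 1, 2 and 3, against 9.07 and 8.74 in AP 1 and AP 3. Only DMSO 3 reached above the lower AP library. The log2 fold change was -0.29 (95% interval -0.76 to 0.18, limma, adjusted p = 0.454), with 6 of 10 sgRNAs lower. It was the 117th lowest of the 779 genes, in the direction that the choice of the genes favours. Of all genes, 17 (2.18%) passed, and at an unadjusted p under 0.05 there were 97 higher (12.5%) and 68 lower (8.73%), with neither CHD1 nor CHD2 among them.

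Between DMSO and AP the sgRNAs of a gene pointed both ways. For CHD1 they ranged from -0.74 to 1.71, and the highest was sgRNA 1258 at 489, 4610 and 900 counts in DMSO 1, 2 and 3, against 433 and 346 in AP. sgRNA 1252, the most uniform one under Taxol, was the single CHD1 sgRNA with every DMSO library below both AP libraries, at 565, 720 and 398 counts in DMSO, against 796 and 845 in AP. For CHD2 they ranged from -1.12 for sgRNA 1276 to 0.80 for sgRNA 1275, which like CHD1 sgRNA 1258 had all DMSO libraries above both AP libraries. Of all 7855 sgRNAs, 943 (12%) had every DMSO library below both AP libraries and 879 (11.2%) had every one above. The rare sgRNA 1276 had 38.6, 59.7 and 91.9 counts in DMSO, against 193 and 89.1 in AP.

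Between Taxol and DMSO the log2 fold changes of the other 8 measured CHD genes ran from -0.72 to 0.52. Of these genes 2 were above the median gene, which was at 0.03, and 6 were below it. Their own median was -0.03, and none passed an adjusted p of 0.05 in limma, while 1 was higher and 1 was lower at an unadjusted p under 0.05. The higher one was CHD6, at 9.46, 8.97 and 9.08 in Taxol, against 8.42, 9.01 and 8.53 in DMSO (log2 fold change 0.52 ± 0.29, limma, adjusted p = 0.748), the 26th highest of all genes. The lower one was CHD8, a remodeller that binds beta-catenin, at 8.99, 8.78 and 8.54 in Taxol, against 9.24, 9.71 and 9.51 in DMSO, without overlap (-0.72 ± 0.23, limma, adjusted p = 0.421). It was the 4th lowest of all genes, sgRNAs pointed down in 9 of 10 cases, and 35 genes (4.49%) had their Taxol libraries below all DMSO libraries.

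CHD3, CHD4 and CHD5, the motors of NuRD complexes, had values of -0.0026, -0.06 and 0.06, CHD7, the gene mutated in CHARGE syndrome, -0.05, CHD9 -0.15, and CHD1L, a remodeller activated by poly(ADP-ribose), -0.02. None of these 6 passed the unadjusted threshold. Between DMSO and AP, none of the 8 passed an adjusted p of 0.05, and CHD9 was the single one at an unadjusted p under 0.05, with all 10 sgRNAs higher (0.61 ± 0.31, adjusted p = 0.170).

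**Figure D4:**
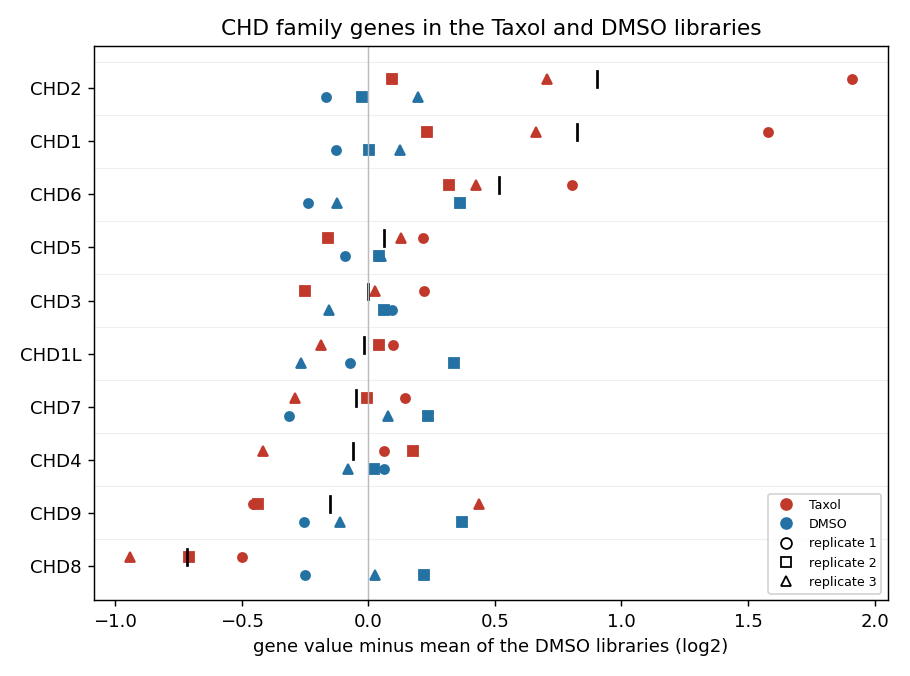
Gene values of the 10 measured CHD genes in the Taxol libraries (red, upper points of each row) and DMSO libraries (blue, lower points) minus the mean of the DMSO libraries, in log2 units, with a black bar at the Taxol mean and symbols for replicate numbers. CHD2 and CHD1 are at the top, CHD6 follows at 0.52, and CHD8 is lowest at -0.72 with its groups apart.

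Of 17 measured ATPases of the Snf2 family outside the CHD genes, 9 were above the median gene and 8 below between Taxol and DMSO (median 0.06), and none passed an adjusted p of 0.05 in limma. At an unadjusted p under 0.05 there was 1, the androgen receptor-interacting helicase RAD54L2, which was higher (0.56 ± 0.26, adjusted p = 0.652). Of 13 measured factors that work beside CHD1 or CHD2 at transcribed chromatin or breaks, such as FACT, the PAF1 complex, H3.3 chaperones and PARP1, 5 were above the median gene and 8 below (median -0.04). None passed the adjusted threshold, and the histone chaperone ASF1A was the 1 that passed the unadjusted one, again higher (0.63 ± 0.35, adjusted p = 0.726).

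Named members of that list included both subunits of FACT, SUPT16H at 0.23 and SSRP1 at -0.27, the PAF1 complex subunits PAF1, CTR9, LEO1 and CDC73 at -0.04, -0.23, -0.03 and 0.37, and PARP1 at -0.19. The H3.3 chaperones HIRA and DAXX were at -0.07 and -0.35. The other histone chaperones listed with them, UBN1, ASF1B and ASF1A, were at 0.12, 0.09 and 0.63. The remaining member, SUPT6H, was at -0.06. Between DMSO and AP the Snf2 list had a median of 0.14 and the second list of -0.07, against 0.15 for all genes. There too no member passed an adjusted p of 0.05 in limma, and at the unadjusted threshold there was 1 among the Snf2 genes, the SWI/SNF ATPase SMARCA2 (0.51 ± 0.29, higher, adjusted p = 0.210), and 0 in the second list.

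Over the 3 Taxol and 3 DMSO libraries CHD1 and CHD2 followed each other more closely than either followed any other gene of the library. Likeness was taken as the root mean square difference between gene values, each set relative to its DMSO mean, over 6 libraries. It was 0.15 log2 units between CHD1 and CHD2, where the median gene differed from CHD1 by 0.71 and from CHD2 by 0.83. The next genes to CHD1 were TADA3, an adaptor of acetyltransferase complexes (0.16), the methylcytosine dioxygenase TET2 (0.18), the acetyltransferase EP300 (0.18) and the retinoic acid receptor RARA (0.22). Those next to CHD2 were TET2 (0.25), EP300 (0.29), the hydroxylase JMJD6 (0.29) and TADA3 (0.30). A high value in Taxol 1 was common to them, from 1.10 in RARA to 1.63 in JMJD6, and the likeness of 2 genes that were both picked for a high value under Taxol is a description of these libraries.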

How the data were processed

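The authors' deposited sgRNA tables, 1 for each of 3 comparisons and made with MAGeCK 0.5.8 per the submitters' processing notes, hold normalized counts, with the values of a group joined in 1 cell. No unit applies to a joined cell as a whole. The sources used here name no trimming or mapping options. Since the tables were normalized separately, tests stayed within a table. The order of values in a cell was taken as the replicate order, and of the 3 AP values those at places 1 and 3 were taken as replicates 1 and 3, the numbers in the labels. The other AP value was not used (2 value columns in all). A header line counted as an sgRNA with 0 reads (0% of the reads) was left out. The other columns hold fold changes and p-values of the authors and were not used, nor were the deposited gene tables.

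Dividing a library's values by their common step gave back the reads (98.98% to 99.99% of values whole within 0.1 read). These reads served for depth, shares and 1 alternative. Gene values were means over sgRNAs of log2(normalized count + 1). All genes were fitted with limma 3.58.1 (R 4.3.3; lmFit, eBayes with trend, no covariates) with Benjamini-Hochberg adjustment over 779 genes, two-sided, called at an adjusted p under 0.05. The fits were tested on simulated data. The errors given with ± are SDs between libraries, pooled over both groups for fold changes and within the single group for RPM averages.

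Taxol and DMSO libraries of the same number deviated together (correlation of deviations over genes 0.19, 0.15 and 0.22 for numbers 1, 2 and 3, between -0.13 and -0.05 for unlike numbers), so the numbers were taken as pairs there. The main fit did not use this pairing, and the fit with the replicate number as a block did. With the block CHD6, CHD8, RAD54L2 and ASF1A did not pass either (limma, adjusted p = 0.579, 0.310, 0.356 and 0.584). The members and lists were chosen with earlier results of these data known. Genes named are CHD1, CHD2, the other CHD genes, members of 2 lists at an unadjusted p under 0.05, and the 5 genes most like each member. FACT, PAF1 complex, histone chaperone, SUPT6H and PARP1 values, ABCB1 and USP22 were added after the values were seen.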

Additional observations from a re-analysis of the deposited data

How the results depend on the processing

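CHD1 and CHD2 were above 0 between Taxol and DMSO under all 13 alternatives run, at 0.45 to 1.12 and 0.40 to 1.31, both ends being fits without 1 Taxol library. The replicate block returned the main values there, because each replicate number had a library in both groups. Scaling moved all genes together. The median log2 count of the 80 non-targeting sgRNAs was 0.17 higher in Taxol than DMSO, a rise not seen per sgRNA (see above). Over AP it was 0.53 higher in Taxol and 0.31 in DMSO. Centring on it put CHD1 at 0.65 and CHD2 at 0.73 between Taxol and DMSO, and RPM scaling, chosen after seeing the data, put them at 0.51 and 0.59. In RPM they stayed 0.78 and 0.86 above the median gene (-0.28), against 0.79 and 0.87 in the deposited scaling. Against AP the Taxol value of CHD1 was 0.25 in RPM, and that of CHD2 was -0.07, with the median gene at -0.53. Between DMSO and AP, CHD1 turned to -0.19 with centring and to -0.26 in RPM, where the median gene was at -0.16 and -0.23. Robust rank aggregation, described below, gives no fold change of its own. In every other alternative CHD2 kept its direction between DMSO and AP, a direction that the choice of the genes favours. Its adjusted p in limma ranged from 0.0858 to 0.631 where both AP libraries were kept. Robust rank aggregation, the gene test the study names, gave an adjusted p of 1 for CHD1 and 0.624 for CHD2.

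The number of genes passing the test, CHD1 and CHD2 counted with the rest, depended more on the processing. In the comparisons with Taxol these counts are background over all genes, not a test of CHD1 or CHD2. Between Taxol and DMSO it was 2 in RPM and 3 with the replicate block, and 0 to 4 without 1 library, with 4 without Taxol 2 and 0 without DMSO 1. Between Taxol and AP it was 9 without the highest and lowest sgRNA, 154 with non-targeting centring (4 higher, 150 lower), 60 in RPM (2 higher, 58 lower), 64 with the replicate block and 0 to 9 without 1 library. Between DMSO and AP it was 17 (6 higher, 11 lower), and it was 0 with the median over sgRNAs, 5 without the highest and lowest sgRNA, 101 in RPM (3 higher, 98 lower), 67 with the replicate block and 0 to 33 without 1 library, with 33 without DMSO 2, 1 without DMSO 3 and 0 without DMSO 1, AP 1 or AP 3. Centring left 16 there, all lower, and rank aggregation 17 (1 higher, 16 lower). In the comparisons with AP the block leaves out the library that has no AP partner, and same-numbered libraries did not deviate together (correlations between -0.05 and 0.04). The block put CHD1 at 1.29 and CHD2 at 1.06 between Taxol and AP, and at 0.09 and -0.31 between DMSO and AP, where neither passed. With 1 AP library left out, the remaining one is assumed to vary like the DMSO or Taxol libraries. Count-based fits of the recovered reads (edgeR and DESeq2) were not run, because the joined columns are not counts as deposited. The rarest of the 20 sgRNAs, CHD2 sgRNA 1276, had 13 reads in Taxol 3. A minimum mean of 50 normalized counts removed it between Taxol and DMSO and put CHD2 at 0.99.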
